A study of Homo sapiens with 11 samples.

Results

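ER-phagy receptors are the proteins that hand pieces of the endoplasmic reticulum (ER) to the autophagy machinery, and 6 of their genes are described here: CCPG1, RTN3, TEX264, ATL3, SEC62 and CALCOCO1. They were taken by name from a table of gene counts, and all 6 were found among its 38021 genes. All 6 also passed the filter on low counts, which left 17793 genes for testing. The cells were HEK293T, an established human embryonic kidney line with the genotype given as WT. They were treated for 6 h with vehicle (0.1% DMSO), with thapsigargin (Tg, spelled "Thapsigargain" in the labels) at 500 nM, with AA147 at 10 µM, or with AA132 at 0.1, 0.3, 1, 3, 6, 10, 15 or 30 µM. Tg blocks the pump that fills the ER with calcium and is a standard cause of ER stress. AA132 and AA147 are compounds that act on ER protein folding capacity. There is 1 labelled sample per condition, 11 in all and all from this line, while each condition has 3 numbered columns in the table. Whether these are cultures, libraries or repeat sequencing runs is not stated, so the 33 columns were treated as libraries, n = 3 counts them, and p-values measure only the spread between them.

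In ER-phagy a receptor in or on the ER membrane binds ATG8 proteins (the LC3 and GABARAP families) on the growing autophagosome, so that a fragment of ER is enclosed and carried to the lysosome. RTN3 and ATL3 serve the tubules: RTN3 is a reticulon that bends the membrane, and ATL3 is a GTPase of the atlastin family that fuses tubules. CCPG1 and TEX264 are single-pass membrane proteins. CCPG1 also binds RB1CC1 (FIP200), a subunit of the kinase complex that starts autophagy, and its gene is known to respond to ER stress. SEC62 belongs to the protein translocation channel of the ER and is known for trimming the ER during recovery from stress. CALCOCO1 is a soluble receptor that reaches the ER through VAPA and VAPB.

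Libraries held 32.27 M to 37.96 M counts, and the second lowest held 36.36 M. Library 1 of vehicle, of AA132 10 µM and of AA147 stood apart from the other libraries of their conditions, and member results that change without them are given with and without them. The known response genes were HSPA5, DNAJB9, DDIT3 and HMOX1. In edgeR, all 4 were higher than vehicle under Tg and at 6, 10, 15 and 30 µM AA132, at an adjusted p under 0.05. Under AA147, and at 1 µM AA132 and below, none of them passed. At 3 µM AA132 only HSPA5 did. Without the 3 libraries that stood apart, HSPA5 also passed under AA147, and HMOX1 joined HSPA5 at 3 µM AA132. HSPA5, the ER chaperone BiP, stood at 960 ± 72.6 CPM (counts scaled to library size and composition; SD, n = 3) in vehicle, 11023 ± 276 in Tg and 2636 ± 183 in 30 µM AA132. Of 5 marker genes expected in this line, NEFM, CDH2, VIM and KRT18 were at 37.1 CPM or more in every library, and PAX2 was low at 0.407 to 1.53 CPM. PTPRC, CD3E, PECAM1 and ALB, markers of other cell types, had at most 5 counts in any library. The fifth such marker, COL1A1, averaged 44.3 CPM in vehicle and 19.98 in Tg, and its part in the results was not tested. In bulk RNA, fewer cells with a transcript and less of it per cell cannot be told apart.

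Of 5 receptor promoters, 2 held a match in a search for sequence elements known from ER stress, oxidative stress and lysosomal gene control. Whether that is more or fewer than in other promoters was not tested. Promoters of 300 bases, from 250 before to 50 after the start site, were read from RefSeq (GRCh38.p14), which held 5 of the 6 genes (not CALCOCO1). Both strands were searched for 6 motifs. These were the ER stress elements ERSE (in 0.0806% of all 27305 promoters) and ERSE-II (0.0549%), the unfolded protein response element UPRE (TGACGTG, 2%), the C/EBP-ATF element (TGATGNAAT, 1.02%), the antioxidant response element (TGACNNNGC, 13.6%) and the lysosomal CLEAR element (TCACGTGA, 1.04%). SEC62 held a UPRE match on the reverse strand starting at -16, and RTN3 held an antioxidant response element match on the reverse strand starting at position 39 after the start. The other 3 promoters held none of these letters. In the promoter of HSPA5, searched in the same way, an ERSE was found at -66. The 2 promoters with a match are shown with the match in capitals, and that of CCPG1 is shown for comparison. Nearly all counts of the CCPG1 locus stood under a read-through gene that starts upstream (next paragraph), and the promoter of that gene is not described here. The promoters shown lie at chr3:169966557-169966856 (plus strand), chr11:63681200-63681499 (plus strand) and chr15:55408310-55408609 (minus strand). A match is a description of these letters and not evidence of a bound site.
SEC62: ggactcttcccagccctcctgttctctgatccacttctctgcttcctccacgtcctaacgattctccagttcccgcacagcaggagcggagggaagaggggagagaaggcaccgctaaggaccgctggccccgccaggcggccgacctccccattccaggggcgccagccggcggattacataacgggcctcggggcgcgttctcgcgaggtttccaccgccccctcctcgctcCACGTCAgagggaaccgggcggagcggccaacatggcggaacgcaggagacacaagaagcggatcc
RTN3: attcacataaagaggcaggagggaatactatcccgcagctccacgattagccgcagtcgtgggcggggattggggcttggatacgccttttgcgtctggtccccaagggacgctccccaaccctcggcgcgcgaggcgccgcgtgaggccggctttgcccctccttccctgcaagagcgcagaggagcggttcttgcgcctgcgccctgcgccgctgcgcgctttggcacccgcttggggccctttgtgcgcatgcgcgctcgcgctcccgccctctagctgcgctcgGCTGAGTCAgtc
CCPG1: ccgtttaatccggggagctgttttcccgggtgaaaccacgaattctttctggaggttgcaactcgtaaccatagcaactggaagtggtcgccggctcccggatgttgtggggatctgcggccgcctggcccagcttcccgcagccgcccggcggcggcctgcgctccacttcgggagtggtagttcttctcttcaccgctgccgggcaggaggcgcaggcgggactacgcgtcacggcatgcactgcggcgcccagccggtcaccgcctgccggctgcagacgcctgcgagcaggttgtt

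Nearly all reads of the CCPG1 locus were counted under another name. CCPG1 lies at chr15:55340032-55408510 on the minus strand (GENCODE v44, GRCh38, as are the gene positions that follow). The read-through gene DNAAF4-CCPG1, which the table calls DYX1C1-CCPG1, spans chr15:55355248-55498360 and joins exons of DNAAF4 to those of CCPG1. Of the 3553 bases of the canonical CCPG1 transcript, 95.8% lie inside exons of the read-through gene. The CCPG1 entry received 31 to 97 counts per library (median 60), and the read-through entry received 2049 to 4171 (median 2640). CCPG1 thus held 1.16% to 3.00% of the counts of the pair, with a median of 2.15%. The entry of DNAAF4 itself stood at only 0.245 to 1.27 CPM. The rule on names selects the small CCPG1 entry, so its values are given first, followed by the sum of the CCPG1 and DYX1C1-CCPG1 entries, called the summed CCPG1 locus. That sum was chosen after seeing the data, and reads from the read-through transcript and from CCPG1 cannot be told apart in it. Exons of neighbouring genes also overlap those of CCPG1 (PIGB, 5.0% of its exonic bases) and of the read-through gene (PIGB, 7.9%). The same holds for TEX264 (RAD54L2, 3.2%), ATL3 (a non-coding RNA gene, 1.6%) and SEC62 (FHL1P1, 1.3%). Whether counting used strand is not stated.

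**Figure D1:**
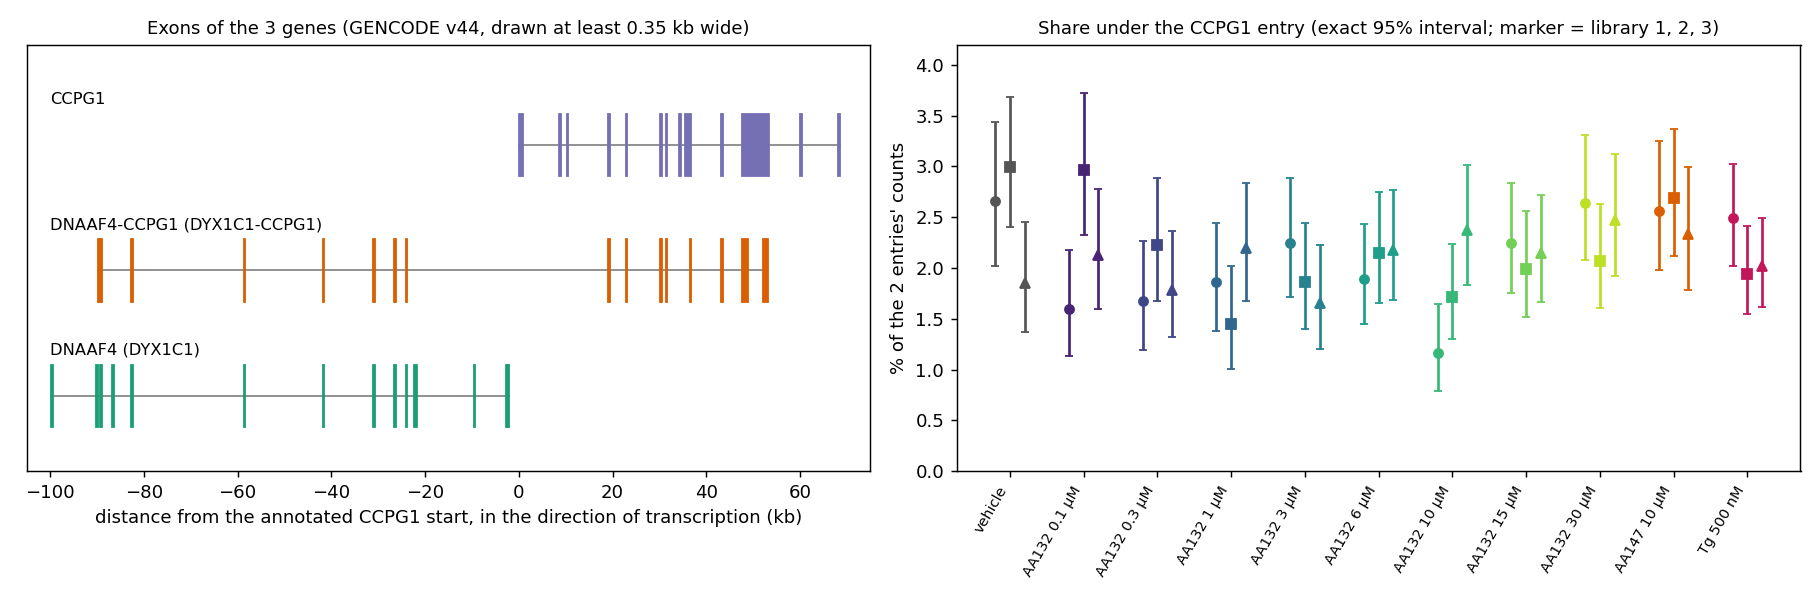
Left, exons of CCPG1, the read-through gene and DNAAF4 by distance in kb from the CCPG1 start. Right, the percent of the pair's counts that stood under CCPG1 in each of 33 libraries with exact 95% binomial intervals (counting error only), which ran from 1.16% to 3.00%.

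Per kilobase of canonical transcript, RTN3 was the most abundant receptor in vehicle-treated cells and ATL3 the least, when CCPG1 was taken as the summed locus. RTN3 stood at 53.7 to 60 CPM per kb over the 3 vehicle libraries. TEX264 followed at 35.4 to 45.6 and the summed CCPG1 locus at 16.4 to 22.2 CPM per kb. CALCOCO1 at 12 to 13.4 and SEC62 at 9.01 to 13.0 CPM per kb overlapped and cannot be ordered. ATL3 was lowest at 2.96 to 3.01 CPM per kb, and the CCPG1 entry alone was at 0.358 to 0.665. These levels depend on which transcript is taken as the length, and gene counts do not separate isoforms such as the long RTN3 form that carries the ATG8 binding motifs.

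The range of the condition means was narrow for 5 of the 6 genes. CALCOCO1 moved least, from 67.2 CPM at 3 µM AA132 to 72.9 at 30 µM, a ratio of 1.09. SEC62 and TEX264 both spanned a ratio of 1.27, ATL3 1.31 and RTN3 1.32. The CCPG1 entry spanned 1.91, from 1.25 to 2.39 CPM, on few counts. The summed CCPG1 locus spanned 1.70, from 65.5 CPM at 0.1 µM AA132 to 111 CPM in Tg.

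**Figure D2:**
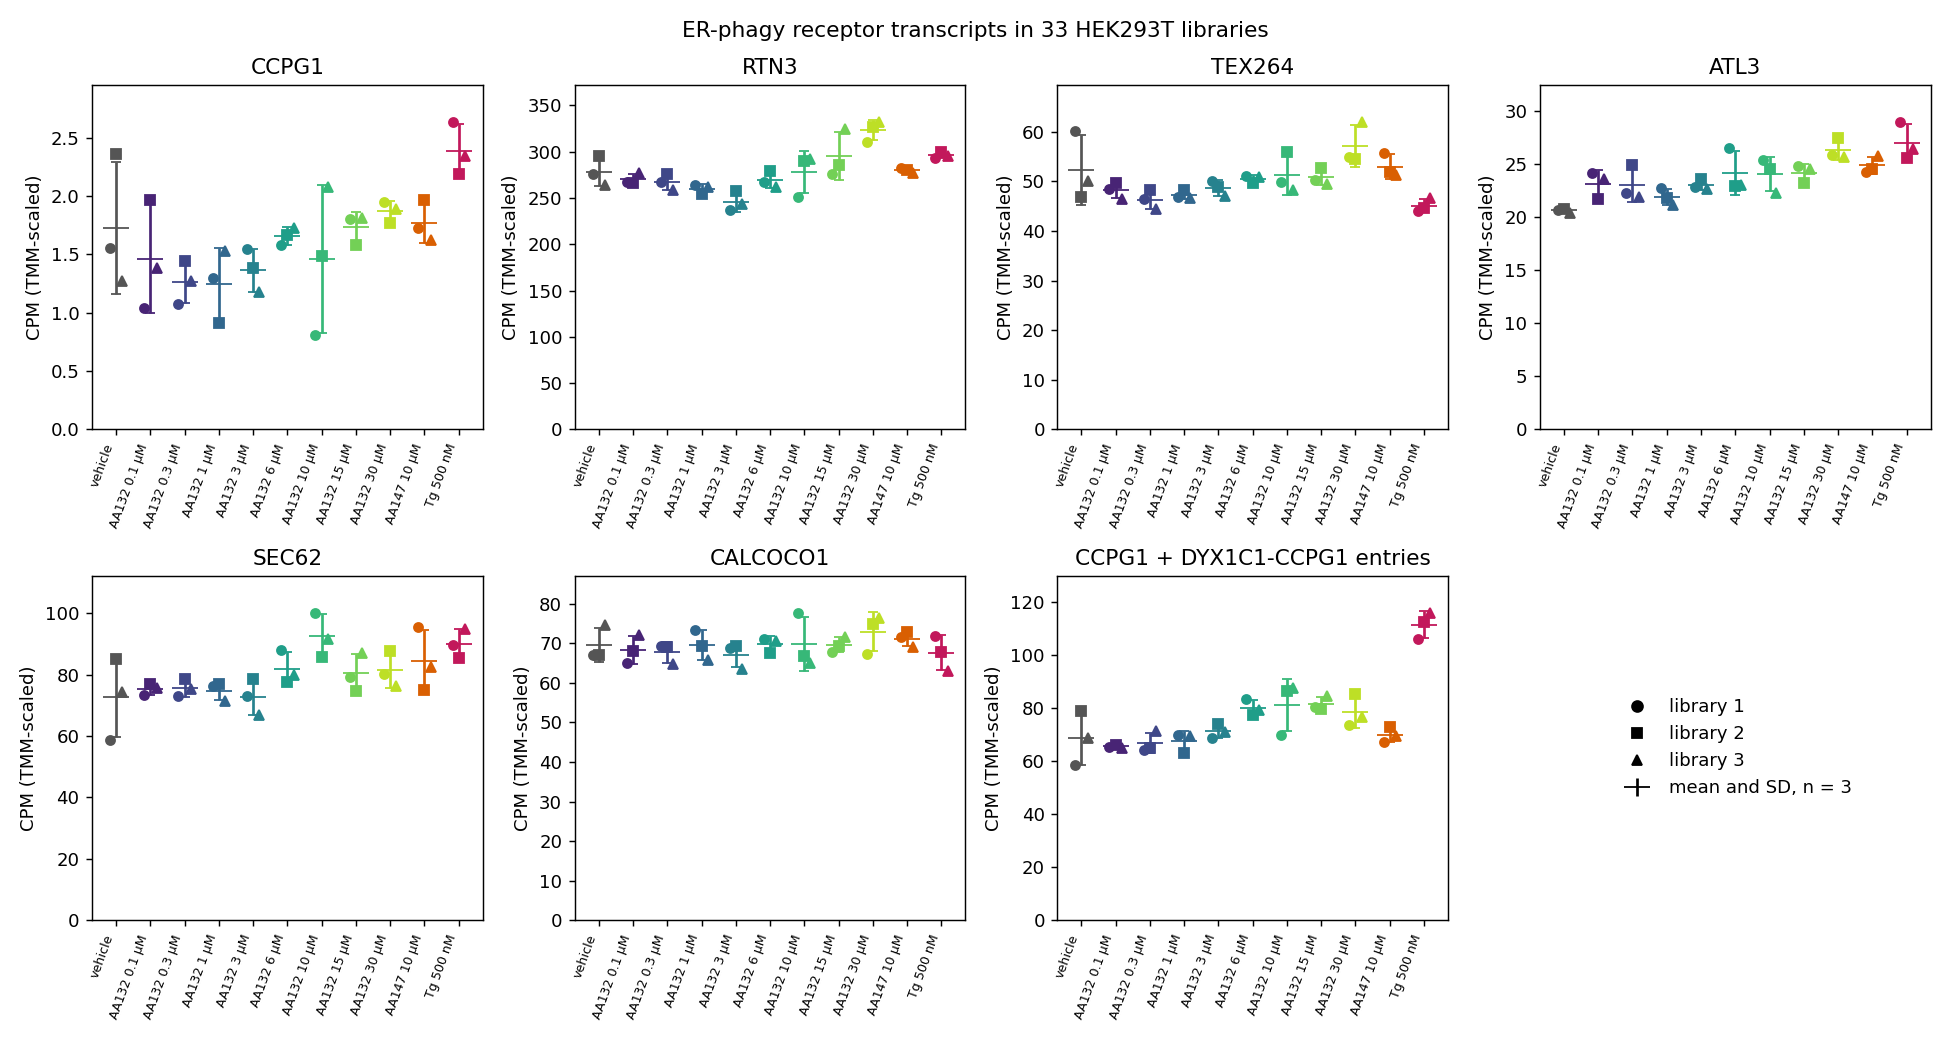
Levels of the 6 receptor genes and of the summed CCPG1 locus in CPM (y axes from 0) in each library, by condition, with the mean and SD of 3 libraries. The 3 Tg libraries lie above all others at the summed CCPG1 locus (106 to 116 CPM), and CALCOCO1 stays between 63.1 and 77.8 CPM.

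Under Tg the CCPG1 locus, ATL3 and SEC62 rose and TEX264 fell, while RTN3 and CALCOCO1 did not pass the test. The fit was edgeR's quasi-likelihood test over all 33 libraries, and a gene is called where its adjusted p is under 0.05 over all genes tested. By that rule 3 of the 6 entries were called (ATL3 and SEC62 higher, TEX264 lower), and 4 with the summed CCPG1 locus in place of the CCPG1 entry, where 31.2% of all genes were called, 16.2% higher and 15% lower. The median log2 fold change was 0.20 over the 6 genes and 0.005 over all genes. Every comparison with vehicle uses the same 3 vehicle libraries, so the comparisons are not independent of each other.

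The summed CCPG1 locus gave the largest change. Its level was 58.3, 78.8 and 68.6 CPM in vehicle libraries 1 to 3 and 106, 112 and 116 CPM in the Tg libraries. The 2 groups were far apart, with every Tg library above every vehicle library. The log2 fold change was 0.70 ± 0.08 (SE), a fold of 1.62, with an adjusted p of 3.97e-08. Leaving out any 1 library of the pair kept it between 0.59 and 0.79, with adjusted p at most 1.34e-06. Without the 3 libraries that stood apart it was 0.59, with an adjusted p of 6.20e-09. The CCPG1 entry alone was at 1.55, 2.36 and 1.27 CPM in vehicle and 2.63, 2.18 and 2.34 in Tg. These groups overlapped, and the log2 fold change of 0.47 (95% interval -0.03 to 0.96) had an adjusted p of 0.152. Without vehicle library 2 the entry was called, at 0.74 with an adjusted p of 0.032.

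ATL3, the tubule-fusing GTPase (chr11:63624087-63671921, minus strand), had the tightest vehicle values of the 6 genes relative to its level. It was at 20.7, 20.8 and 20.4 CPM in vehicle and 29.0, 25.6 and 26.4 CPM in Tg. The groups did not overlap, and the log2 fold change was 0.39 ± 0.07 (SE) with an adjusted p of 0.000111. ATL3 kept its Tg call under each alternative tried.

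SEC62, the translocon subunit (chr3:169966635-169998373, plus strand), was at 58.8, 84.9 and 74.4 CPM in vehicle and 89.6, 85.5 and 94.9 CPM in Tg. The Tg libraries all lay above vehicle, but vehicle library 2 came within 1 CPM of the lowest of them. The log2 fold change was 0.31 (95% interval 0.11 to 0.50, adjusted p 0.0123). This call was lost without vehicle library 1 (0.17, adjusted p 0.152) and without Tg library 3 (adjusted p 0.0787).

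TEX264 (chr3:51662693-51704323, plus strand) was the one receptor gene called lower. It was at 60.2, 46.8 and 49.9 CPM in vehicle and 44.1, 44.5 and 46.6 CPM in Tg. All Tg libraries lay below vehicle, the gap being small except for vehicle library 1. TEX264 fell by 0.21 on the log2 scale (95% interval -0.36 to -0.06, adjusted p 0.0245). The call was lost without vehicle library 1 (-0.11, adjusted p 0.263), Tg library 1 (adjusted p 0.0666) or Tg library 2 (adjusted p 0.0702).

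RTN3 (chr11:63681446-63759891, plus strand), whose start lies 9.53 kb from that of ATL3 with the genes pointing apart, was at 276, 295 and 264 CPM in vehicle and 293, 299 and 295 CPM in Tg. The groups overlapped, and the log2 difference was 0.09 (95% interval -0.03 to 0.21, adjusted p 0.288). CALCOCO1 (chr12:53708517-53727745, minus strand) ranged from 67.1 to 74.6 CPM in vehicle and from 63.1 to 71.9 CPM in Tg, which overlapped. Its log2 difference was -0.04 (95% interval -0.18 to 0.10, adjusted p 0.708). Without the 3 libraries that stood apart, where 32.3% of all genes were called, ATL3 was the only one of the 6 entries still called under Tg. The same held with only the Tg and vehicle libraries in the fit.

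**Figure D3:**
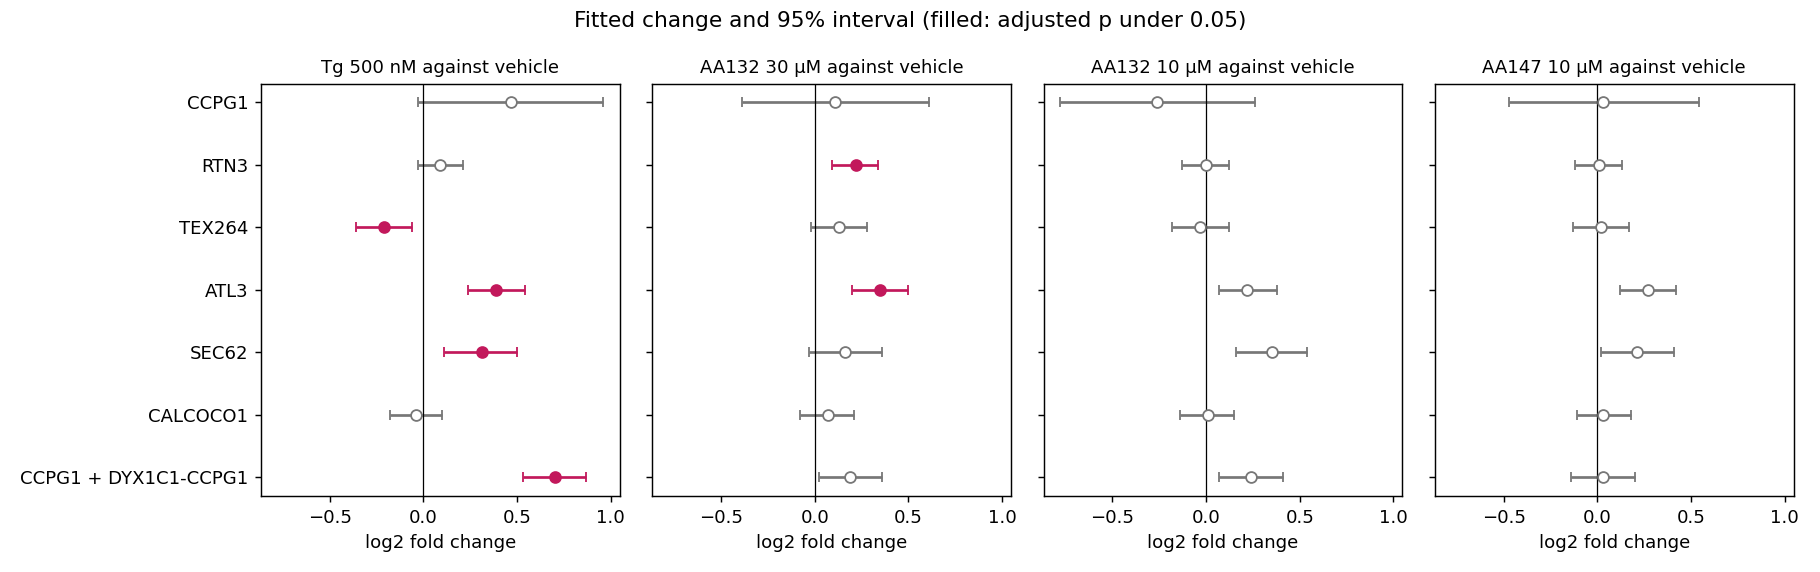
Fitted log2 fold changes against vehicle with 95% intervals for the 6 receptor genes and the summed CCPG1 locus under Tg, AA132 at 30 µM and 10 µM, and AA147 (filled points: adjusted p under 0.05). ATL3 is filled under Tg (0.39) and 30 µM AA132 (0.35), and the summed CCPG1 locus only under Tg (0.70).

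AA132 at 30 µM raised the 2 tubule genes, ATL3 and RTN3. These 2 of 6 genes were called higher and none lower, where 7.05% of all genes were called and 3.86% were called higher. All 6 log2 fold changes were above 0, with a median of 0.15 against -0.001 over all genes. ATL3 was at 25.8, 27.5 and 25.7 CPM, above all vehicle libraries, a log2 fold change of 0.35 ± 0.07 (SE, adjusted p 0.00266). RTN3 was at 311, 327 and 332 CPM, also above all vehicle libraries. Its log2 fold change was 0.22 ± 0.06 (SE, adjusted p 0.0239). The RTN3 call was lost without vehicle library 3 (adjusted p 0.112), 30 µM library 2 (0.0827) or 30 µM library 3 (0.0883), and without the filter on low counts (0.0717). With only the 30 µM and vehicle libraries in the fit neither gene was called.

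The other receptor genes were not called at 30 µM. TEX264 had a log2 difference of 0.13 (95% interval -0.02 to 0.28, adjusted p 0.332). Without vehicle library 1 it was called, at 0.24 with an adjusted p of 0.0190, as it was without the 3 libraries that stood apart (0.24, adjusted p 0.0103). SEC62 was at 0.16 (-0.03 to 0.36), CALCOCO1 at 0.07 (-0.08 to 0.21) and the CCPG1 entry at 0.11 (-0.39 to 0.61). The summed CCPG1 locus was at 73.6, 85.4 and 76.4 CPM, overlapping vehicle, with a log2 difference of 0.19 (0.02 to 0.36, adjusted p 0.169). Without vehicle library 2 that difference was 0.30 with an adjusted p of 0.0215, and without vehicle library 1 it was 0.09 with an adjusted p of 0.534. Without the 3 libraries that stood apart it was 0.09 (adjusted p 0.409).

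Tg and 30 µM AA132 differed at TEX264 and at the CCPG1 locus when compared directly, although doses and compounds are unrelated. TEX264 was 54.9, 54.6 and 62.0 CPM at 30 µM, above the Tg values of 44.1 to 46.6, a log2 difference of 0.34 ± 0.07 (SE, adjusted p 0.000466). It was the 1 of 6 entries called, where 29.8% of all genes were called. The summed CCPG1 locus was lower in 30 µM AA132 than in Tg by 0.51 on the log2 scale, written as -0.51 ± 0.08 (SE, adjusted p 1.35e-05). RTN3 was 0.13 higher (95% interval 0.00 to 0.25, adjusted p 0.111), and without the 3 libraries that stood apart it was called as well. ATL3 differed by -0.04 (-0.19 to 0.11), SEC62 by -0.14 (-0.34 to 0.05) and CALCOCO1 by 0.11 (-0.03 to 0.25).

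At lower doses of AA132 no receptor gene was called by edgeR. Of all genes, 2.76% were called at 15 µM and 1.41% at 10 µM. The share was 1.07% for the 6 µM dose, 0.118% for 3 µM, and 0% for 1, 0.3 and 0.1 µM. At an unadjusted p under 0.05 the receptor genes numbered 1, 2, 1, 2, 0, 2 and 1 of 6 in the order of falling dose, beside 2894, 2292, 2182, 1635, 1057, 981 and 796 of all 17793 genes. DESeq2 called 1 at 15 µM (ATL3) and 1 at 10 µM (SEC62), and 0 at the other 5 doses. SEC62 was at 100.2, 85.9 and 91.7 CPM at 10 µM, all above vehicle, with a log2 difference of 0.35 (95% interval 0.16 to 0.54, adjusted p 0.0538). Without vehicle library 2 SEC62 was called, with an adjusted p of 0.00694. RTN3 at 3 µM lay below all vehicle libraries, with a log2 difference of -0.18 (95% interval -0.30 to -0.06, adjusted p 0.326).

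ATL3 stood above vehicle at every dose. Its lowest treated library, at 1 µM AA132, was at 21.1 CPM, and its highest vehicle library was at 20.8. All 30 treated libraries, Tg and AA147 included, therefore lay above all 3 vehicle libraries, which held for 0.0337% of all genes tested (6 of 17793). The 3 vehicle values spanned only 20.4 to 20.8 CPM, and the margin at 1 µM was small. The log2 differences at the 6, 10 and 15 µM doses were 0.23, 0.22 and 0.23, none of them called. At 0.1, 0.3, 1 and 3 µM they were 0.17, 0.16, 0.09 and 0.16, also not called. They did not rise with dose over these lower doses, and at 0.1, 0.3 and 1 µM no gene of any kind was called.

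Across the 8 AA132 doses, 3 receptor genes had a called rising slope in a fit of log2 level on log10 dose over 24 libraries. The fit called 18.7% of 17554 genes, and 9.83% of the 17554 were called rising. The slope per 10-fold dose was 0.09 for TEX264 (adjusted p 0.00287), 0.08 for RTN3 (0.0198) and 0.08 for SEC62 (0.0374). The means of RTN3 and SEC62 did not climb steadily. RTN3 fell from 270 CPM at 0.1 µM to 246 at 3 µM, then reached 323 at 30 µM. SEC62 was highest at 10 µM (92.6 CPM) and stood at 80.4 and 81.5 CPM at 15 and 30 µM. ATL3 had a slope of 0.07 (adjusted p 0.0532), the CCPG1 entry 0.17 (0.120) and CALCOCO1 0.03 (0.344). The TEX264, RTN3 and SEC62 calls were all lost without the 30 µM dose (adjusted p 0.0728, 0.389 and 0.0511). Leaving out 1 of the 24 libraries at a time, SEC62 lost its call in 8 fits (the library omitted being number 2 of 30 µM, 3 of 15 µM, 2 or 3 of 10 µM, 3 of 1 µM, 1 or 3 of 0.3 µM, or 1 of 0.1 µM). RTN3 lost its call in 2 (without 30 µM library 2 or 3), while ATL3 gained one in 5 and the CCPG1 entry in 2. With vehicle added at dose 0, TEX264 (0.119) and RTN3 (0.0678) were no longer called and ATL3 was (0.00269).

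The summed CCPG1 locus also rose with dose. Its means were 65.5, 66.8, 67.5, 71.1, 79.9, 81.2, 81.4 and 78.5 CPM from 0.1 to 30 µM, so from 6 µM on they lay between 78.5 and 81.4 CPM. The slope was 0.14 ± 0.02 per 10-fold dose (SE, adjusted p 2.81e-05), and 0.16 without the 30 µM dose (adjusted p 4.58e-05). With vehicle at dose 0 it was 0.13 (adjusted p 0.000272). Against vehicle, whose libraries ranged from 58.3 to 78.8 CPM, no single dose was called at this locus. Without vehicle library 2 the doses of 6, 10, 15 and 30 µM were called, with log2 differences of 0.33, 0.35, 0.35 and 0.30. Without vehicle library 1 the same differences were 0.12, 0.14, 0.14 and 0.09, none of them called. Without AA132 10 µM library 1 the 10 µM dose was called at 0.33 (adjusted p 0.0239), and without the 3 libraries that stood apart at 0.24 (adjusted p 0.0378), whereas 6, 15 and 30 µM were then at 0.12, 0.14 and 0.09 and were not called.

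Under AA147 at 10 µM no receptor gene was called by edgeR, which called 0.0225% of all genes. At an unadjusted p under 0.05 there were 2 of 6, beside 1211 of all 17793 genes, and DESeq2 called 0. ATL3 was at 24.3, 24.6 and 25.8 CPM, above all vehicle libraries, with a log2 difference of 0.27 (95% interval 0.12 to 0.42, adjusted p 0.312). SEC62 was at 95.4, 75.1 and 82.4 CPM, overlapping vehicle, with a difference of 0.21 (0.02 to 0.41, adjusted p 0.683). RTN3 (0.01, interval -0.12 to 0.13), TEX264 (0.02, -0.13 to 0.17) and CALCOCO1 (0.03, -0.11 to 0.18) were close to 0. The CCPG1 entry was at 0.03 (-0.47 to 0.54) and the summed CCPG1 locus at 0.03 (-0.14 to 0.20, adjusted p 0.974).

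At the matched dose of 10 µM, AA132 and AA147 were compared directly as the 1 pair that shares a dose. No receptor gene was called by edgeR, none had an unadjusted p under 0.05, and DESeq2 called 0, where 0.0674% of all genes were called. The differences, AA132 minus AA147, were 0.14 for SEC62 (95% interval -0.06 to 0.33), -0.04 for ATL3 (-0.20 to 0.11) and -0.01 for RTN3 (-0.13 to 0.11). They were -0.04 for TEX264 (-0.19 to 0.11), -0.03 for CALCOCO1 (-0.17 to 0.12) and -0.30 for the CCPG1 entry (-0.81 to 0.22). The summed CCPG1 locus was at 69.8, 86.4 and 87.4 CPM under AA132 and 67.2, 73.0 and 69.4 under AA147, a difference of 0.22 (0.05 to 0.39, adjusted p 0.446). Without the 3 libraries that stood apart that difference was 0.29 with an adjusted p of 0.0468.

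Among genes that work with the receptors, Tg raised partners of SEC62 and CCPG1 and UFMylation genes. These lists were written from general knowledge but with earlier results of these data known, so their counts are a description and not an independent test. Under Tg 31.2% of all genes were called, 16.2% higher and 15% lower. Of 7 direct partners 5 were called higher and none lower (median log2 fold change 0.66). They were SEC61A1 (1.47), SEC63 (1.13), SEC61G (0.79) and SEC61B (0.66), which form the channel with SEC62, and RB1CC1 (0.62), the partner of CCPG1. VAPA and VAPB, through which CALCOCO1 binds the ER, were at 0.15 and 0.06 and were not called, but VAPA was called without the 3 libraries that stood apart. UFMylation attaches the small protein UFM1 to ER ribosomes and takes part in ER-phagy. Of 5 of its genes 3 were called higher and none lower (median 0.77), namely UFM1 (1.35), UFL1 (1.15) and UFSP2 (0.77). DDRGK1 was also called without the 3 libraries that stood apart.

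Of the other ER-phagy receptors and adaptors, RETREG2 and RETREG3 were called lower under Tg and higher under 30 µM AA132. Under Tg, RETREG2 (-0.38) and RETREG3 (-0.20), which curve ER sheets and which the table calls FAM134A and FAM134C, were called lower, and CDK5RAP3 (0.31) higher, out of 6. Under 30 µM AA132, RETREG1 (0.35), RETREG2 (0.26), RETREG3 (0.27) and the autophagy adaptor SQSTM1 (0.67) were called higher and none lower. RETREG1 was not called without the 3 libraries that stood apart. Among all genes 31.2% were called under Tg, 16.2% higher and 15% lower. The share of all genes called was 7.05% at 30 µM AA132 and 29.8% between 30 µM AA132 and Tg. Compared directly, 30 µM AA132 minus Tg was 0.64 for RETREG2 (adjusted p 1.92e-08), 0.47 for RETREG3 (1.18e-07), 0.82 for SQSTM1 (9.10e-10) and -0.51 for CDK5RAP3 (1.27e-05).

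Of 7 ATG8 genes, to which the receptors bind, 6 were tested. Among all genes 31.2% were called under Tg and 7.05% at 30 µM AA132. Under Tg, GABARAPL1 (0.30), MAP1LC3B (0.29) and MAP1LC3B2 (0.23) were called higher, the last 2 being near-identical copies whose reads may be split between them. Only MAP1LC3B2 was called without the 3 libraries that stood apart. Under 30 µM AA132 GABARAPL1 alone was called, rising by 0.82 from 25.4 ± 1.18 to 44.9 ± 6.28 CPM (SD, n = 3), and without those 3 libraries MAP1LC3A was called as well. GABARAPL1 and SQSTM1 were called at 6, 10, 15 and 30 µM, doses at which edgeR called no receptor gene except at 30 µM.

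At 30 µM AA132 the partners and the UFMylation genes moved less than under Tg. SEC61A1 (0.41) and SEC63 (0.23) were called among 7 partners, and UFM1 (0.29) among 5 UFMylation genes, where 7.05% of all genes were called. Compared directly with Tg, 6 of the 7 partners and 3 of the 5 UFMylation genes were called lower at 30 µM AA132. That comparison called 29.8% of all genes, with 2752 of 17793 lower. The log2 difference was -1.07 for SEC61A1, -1.06 for UFM1 and -0.90 for SEC63. Without the 3 libraries that stood apart, 3 partners were called at 30 µM, where 15.1% of all genes were called.

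Relatives of the receptors were called in both directions. Under Tg, CALCOCO2 (0.64) and TAX1BP1 (0.43), relatives of CALCOCO1, were called higher and ATL2 (-0.24), a relative of ATL3, lower, out of 7. The share of all genes called was 31.2% under Tg and 7.05% at 30 µM AA132. Under 30 µM AA132, RTN2 (0.47) and RTN4 (0.18), relatives of RTN3, were called higher. At that dose, without the 3 libraries that stood apart, 3 were higher and 1 lower, where 15.1% of all genes were called. Of 4 further ER-shaping genes, CKAP4 (0.64), which spaces ER sheets, was called under Tg and none under 30 µM AA132 by edgeR.

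**Figure D4:**
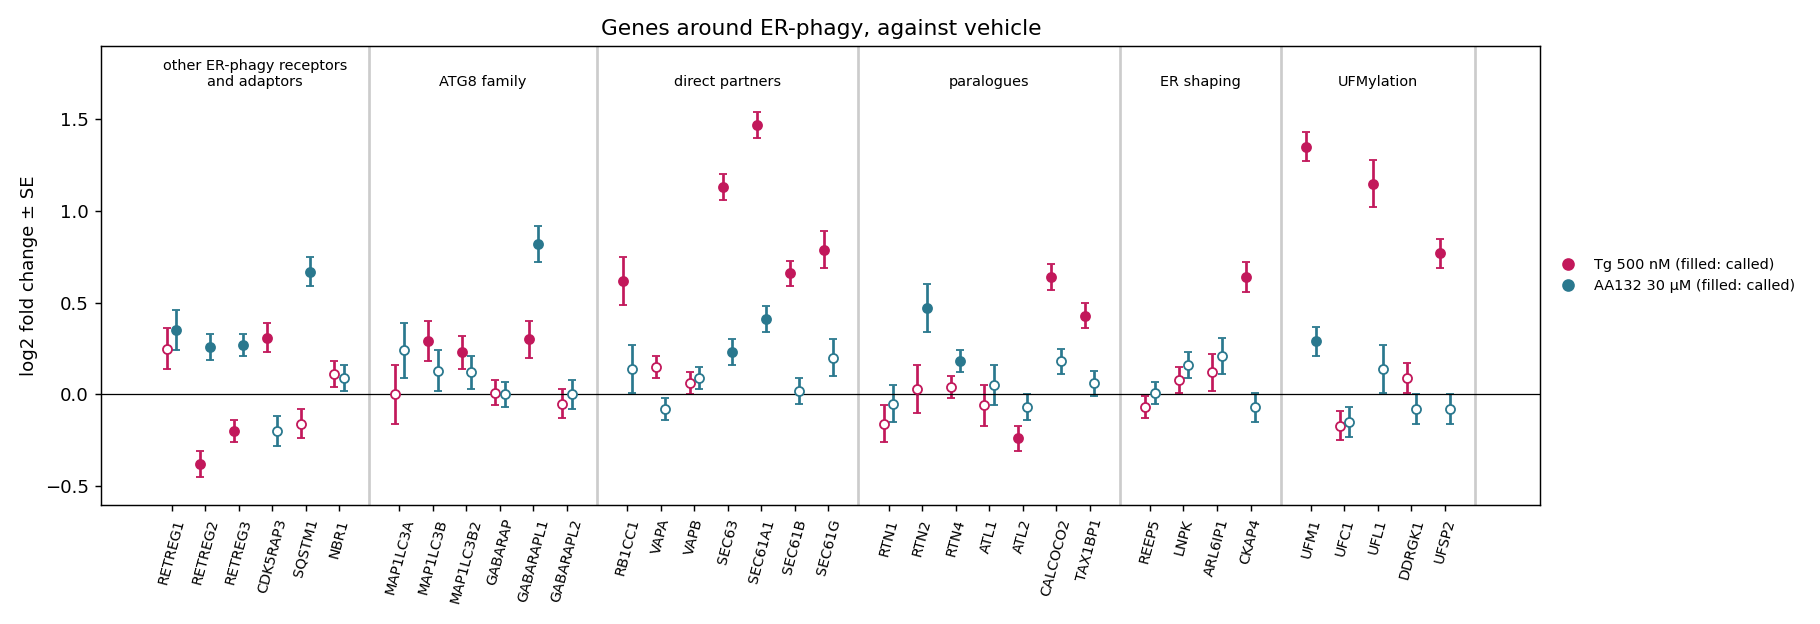
Fitted log2 fold changes ± SE against vehicle for 35 genes around ER-phagy under Tg and 30 µM AA132 (filled points: adjusted p under 0.05). Under Tg SEC61A1 (1.47) and UFM1 (1.35) are highest, and under 30 µM AA132 GABARAPL1 (0.82) and SQSTM1 (0.67).

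The genes whose pattern over the 11 conditions was nearest to the DYX1C1-CCPG1 entry were PRKCZ, RNF113A and SPCS3, a signal peptidase subunit. Their root mean square log2 differences from it were 0.043, 0.049 and 0.050, the smallest among 14010 genes. Under Tg they stood at log2 fold changes of 0.55, 0.80 and 0.76. None of the 6 receptor entries changed enough (an absolute log2 fold change of at least 0.5 in a called comparison) for such a ranking.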

How the data were processed

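RNA from HEK293T cells was sequenced by a service provider (DNBSEQ), per the labels. The deposited table holds expected counts per gene, as the authors deposited them, without scaling. The genome build was GRCh38.p7, per the submitters' processing notes, and the aligner, counter, annotation and use of strand are not given in the sources used here. Values of 0.009, which stand in place of 0, were set to 0. Counts were rounded, and 98 of 38074 rows that shared 45 names were summed by name, and 28 rows with date-like names were kept apart, which left 38021 genes. Columns of a condition differed beyond counting error (chi-square per degree of freedom 4.67 to 64.5, median 8.01, over 33 pairs). Genes passing filterByExpr were fitted in edgeR 4.0.16 (R 4.3.3, limma 3.58.1) with TMM scaling and the quasi-likelihood test, all 11 conditions in 1 model, with Benjamini-Hochberg adjustment. The coefficient of variation between libraries was 9.09%. DESeq2 1.42.0, DESeq2 size factors, no filter, fits of only the conditions compared, a replicate block and leaving out libraries were the alternatives. The statistics were tested on simulated data. The receptor genes and related lists were chosen with earlier results of these data known. Named genes were all receptors, and for the other lists the called genes and up to 4 with the largest change. A gene of the related lists is not reported here.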

Additional observations from a re-analysis of the deposited data

How the results depend on the processing

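Of 1122 gene-level values recomputed under alternatives, 1071 stayed on their side of the threshold, 30 lost a call, 21 gained one and 0 reversed. Most of the 1122 were uncalled in the main fit and had no call to lose, so the total does not measure how firm the calls are. The 30 lost calls fell on SEC62, RTN3, TEX264 and ATL3. The number of receptor genes called (3 under Tg, 2 at 30 µM AA132, 1 between 30 µM AA132 and Tg, 3 for the dose slope, otherwise 0) moved as follows. Without the filter on low counts it was 1 at 30 µM and 1 at 10 µM. With only the 2 conditions compared in the fit it was 1 under Tg, 0 at 30 µM and 2 between 30 µM and Tg. Without the 30 µM dose the slope called 0, and with vehicle at dose 0 it called 2. DESeq2 called 1 at 15 µM, 1 at 10 µM and 4 for the slope (ATL3 added). Leaving out 1 library at a time gave 1 to 4 under Tg, 1 to 3 at 30 µM, 0 to 1 at 10 µM and 1 to 4 for the slope, and in the other comparisons no change. The summed CCPG1 locus was chosen after seeing the data. With it 4 were called under Tg, 2 between 30 µM and Tg and 4 for the slope. Leaving out the 3 libraries that stood apart was also chosen after seeing the data. It gave 1 under Tg, 3 at 30 µM and 2 between 30 µM and Tg. In those fits 32.3%, 15.1% and 38.2% of all genes were called, in the same order. The cause of these changes was not tested. Same-numbered libraries deviated together in 2 of 165 pairs (correlation over 0.1), both among libraries numbered 1, the number of all 3 that stood apart. Of 33 libraries 14 correlated best with their own number. The labels do not say whether same-numbered libraries belong together. With a replicate block the counts stayed at 3 under Tg, 2 at 30 µM, 1 between 30 µM and Tg, 3 for the slope and 0 elsewhere. Depth limits the CCPG1 entry most, at 31 to 97 counts per library.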
